A study of Rattus norvegicus with 18 samples.

Results

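The genes of cholesterol and fatty acid synthesis were followed in H9c2, a myoblast line of rat heart, in control cells and in cells treated with bufalin or periplocin. The set was a fixed list of 34 genes, matched by symbol among the 17455 genes of each RNA table and by gene name in the m6A peak lists. All 34 were listed, 33 had RNA counts, and Abcg1 was listed at 0 in both tables. By role they were 18 enzymes of sterol synthesis, 5 regulators of the pathway, 2 sterol transport genes, 7 genes of fatty acid synthesis and 2 efflux pumps.

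Both compounds are cardiotonic steroids, inhibitors of the membrane pump that exchanges sodium for potassium. The 18 samples were wild-type cells in 6 groups of 3: an immunoprecipitated (IP) and an input library group for control, bufalin and periplocin. In methylated RNA immunoprecipitation sequencing (MeRIP-seq), an antibody against m6A (adenosine of mRNA that carries a methyl group at its N6 position) pulls down modified fragments, and the input holds the RNA before pull-down. The series asked whether m6A takes part in the toxicity of the compounds to heart cells. The labels give neither dose nor time, the control is labelled only as control, and nothing there says whether replicates were separate cultures, so p-values measure the spread between these samples, which may be technical. Bulk RNA does not tell fewer expressing cells from less RNA per cell.

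Cells make cholesterol from acetyl-CoA through mevalonate, squalene and lanosterol, and they make fatty acids from the same acetyl-CoA. When membrane sterol is low, the escort protein Scap carries the precursors of the transcription factors Srebf1 and Srebf2 from the endoplasmic reticulum to the Golgi for cleavage, and the Insig proteins hold Scap back when sterol is plentiful. Cleaved Srebf2 acts mostly on sterol genes and Srebf1 mostly on fatty acid genes, while the pumps Abca1 and Abcg1 export cholesterol and are induced by oxysterol-activated LXR receptors.

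Each value was a comparison with control over all libraries of the groups, so the levels of single libraries cannot be shown. For each RNA value, fitted means of control and treated cells were computed from the deposited mean of normalized counts and the fold change. Of 8 muscle and myoblast markers, Myf5 was listed at 0, and Myod1, Myog, Des, Acta1, Tnnt2, Myh1 and Tpm2 had counts, with control means from 11.5 for Myog to 46221 for Tpm2. Myh1, a fast skeletal myosin, was the marker called: the authors' deposited table gave it a log2 change of 0.47 ± 0.11 with bufalin (adjusted p = 0.0130 by the DESeq2 test) and -0.24 ± 0.11 with periplocin (adjusted p = 0.658). Its bufalin minus periplocin difference was 0.70 (adjusted p = 3.23e-07 by the approximate Wald test), and its part in the members' values was not tested. For genes whose mean reached 200, the median log2 change was 0.00 with bufalin and -0.00 with periplocin. No member passed an adjusted p of 0.05 in either comparison by the DESeq2 Wald test with Benjamini-Hochberg adjustment, where 0.301% of the 3321 genes with an adjusted p passed with bufalin and 0.538% of 12445 with periplocin. At an unadjusted p under 0.05, 8 of 33 members were lower and 2 higher with bufalin, where 1.96% of all genes were lower and 3.04% higher at that p. With periplocin 4 were lower and 1 was higher, where 2.15% of all genes were lower and 4.09% higher. All values of single members are therefore given as measured, and none is a call.

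With bufalin, the RNA of all 18 sterol synthesis enzymes had a fitted mean below that of control. Their median log2 change was -0.14, or a change of -9.05% in level, and single values ran from -0.44 to -0.09. Over all genes with a p-value, 49.6% were below 0. Of the 18 enzymes 7 had an unadjusted p under 0.05 and a lower level, or 38.9%, beside 1.96% of all genes and 2.35% of those whose mean reached 200; 0 were higher at that p. The list was proposed with a lower median of cholesterol genes in these data known, so its direction is not independent evidence. The enzymes were measured in the same libraries, so they are not replicates of the condition.

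**Figure D1:**
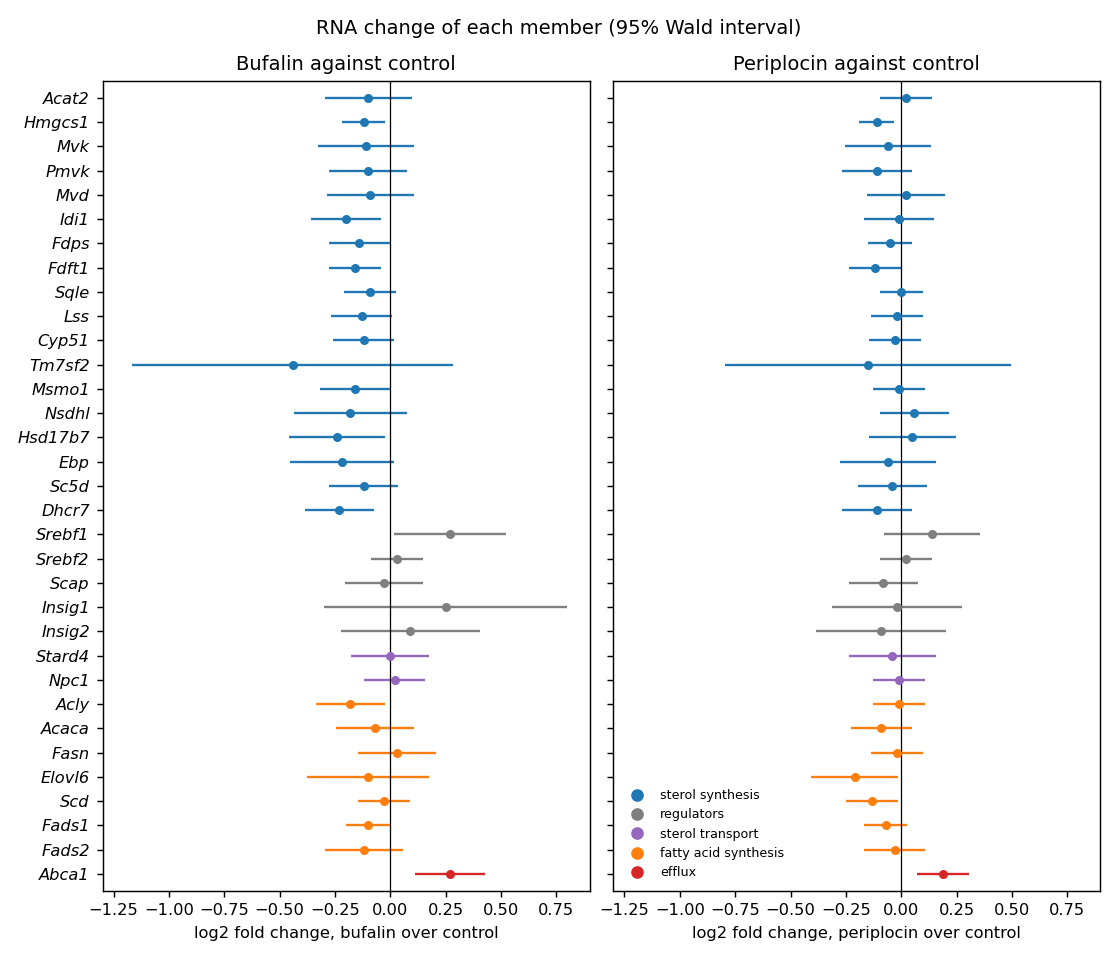
Log2 fold change of RNA over control for the 33 members with counts, bufalin on the left and periplocin on the right; points are the authors' estimates and bars 95% Wald intervals from their standard errors. All 18 sterol synthesis enzymes lie below 0 with bufalin and 14 of 18 with periplocin, and Abca1 lies above 0 in both panels.

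The mevalonate branch turns acetyl-CoA into farnesyl diphosphate. Hmgcs1, the synthase that makes HMG-CoA, had a fitted mean of 18499 normalized counts in control and 16968 with bufalin, and the authors' deposited table gave a log2 change of -0.12 ± 0.05 (SE, unadjusted p = 0.0228). Idi1, the isomerase that makes the activated isoprene unit, went from 3567 in control to 3107, at -0.20 ± 0.08 (p = 0.0144) in the authors' deposited table. Fdps, which joins isoprene units into farnesyl diphosphate, stood at 13319 and 12047, at -0.14 ± 0.07 (p = 0.0323) in the authors' deposited table. These 3 were the members of this branch whose 95% intervals lay below 0. The thiolase Acat2, the kinases Mvk and Pmvk and the decarboxylase Mvd had changes from -0.11 to -0.09 with standard errors of 0.09 to 0.11 in the authors' deposited table, so each interval included 0.

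Fdft1, Sqle and Lss carry farnesyl diphosphate through squalene to lanosterol. Fdft1, squalene synthase, had fitted means of 10420.0 normalized counts in control and 9356 with bufalin, at -0.16 ± 0.06 (unadjusted p = 0.00753, adjusted p = 0.333 by the DESeq2 test) in the authors' deposited table. That adjusted p was the lowest of the 10 sterol enzymes that had one with bufalin. Sqle, the monooxygenase that forms the epoxide of squalene, stood at -0.09 ± 0.06, and the cyclase Lss at -0.13 ± 0.07, in the authors' deposited table.

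The last stage removes methyl groups from lanosterol and moves its double bonds, and its 8 enzymes had a median of -0.20 with bufalin, beside -0.11 for the 7 of the mevalonate branch and -0.13 for the 3 between them. Dhcr7, the reductase of the final step, had fitted means of 1825 in control and 1561 with bufalin, at -0.23 ± 0.08 (unadjusted p = 0.00683) in the authors' deposited table. Hsd17b7, a ketosteroid reductase of sterol demethylation, stood at 1034 and 873, at -0.24 ± 0.11 (p = 0.0256) in the authors' deposited table. Msmo1, the oxidase that starts removal of the methyl groups at carbon 4, stood at 5151 and 4597, at -0.16 ± 0.08 (p = 0.0479) in the authors' deposited table. Those 3 had intervals below 0. Nsdhl, the dehydrogenase of the same demethylation, was at -0.18 ± 0.13 and the isomerase Ebp at -0.22 ± 0.12 in the authors' deposited table. The demethylase Cyp51 and the desaturase Sc5d were both at -0.12, with standard errors of 0.07 and 0.08, in the authors' deposited table. Tm7sf2, a sterol reductase with fitted means of 105 in control and 77.4 with bufalin, had the lowest estimate and the widest error, at -0.44 ± 0.37 in the authors' deposited table. Dhcr7, Hsd17b7, Nsdhl, Ebp, Tm7sf2, Mvk, Pmvk and Mvd had no adjusted p with bufalin, which was deposited only where the mean reached 2259.

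With periplocin the sterol enzymes lay closer to control. Their median was -0.03, 14 of 18 were below 0 beside 49.5% of all genes, and the range was -0.15 to 0.06. An unadjusted p under 0.05 was reached by 2 of 18, or 11.1%, beside 2.15% of all genes that were lower at that p and 2.71% of those whose mean reached 200. Those were Hmgcs1, with fitted means of 17924 in control and 16603 with periplocin and a change of -0.11 ± 0.04 (p = 0.00891, adjusted p = 0.401 by the DESeq2 test) in the authors' deposited table, and Fdft1, at 10095 and 9285 and -0.12 ± 0.06 (p = 0.0310) in the authors' deposited table. Nsdhl, Hsd17b7, Mvd and Acat2 were above 0, at 0.06 ± 0.08, 0.05 ± 0.10, 0.02 ± 0.09 and 0.02 ± 0.06 in the authors' deposited table. Both comparisons used the same control libraries, so their values are not independent of each other.

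The promoter windows of the enzymes were searched for sequence features that the list did not use. RefSeq windows of 250 bases before to 50 after the start site, on build GRCr8, were found for 26 of the 34 members, 15 of them sterol enzymes. Sqle, Fdft1, Pmvk, Stard4, Fasn, Acaca, Elovl6 and Abcg1 had no entry. The CCAAT box, CCAAT searched on both strands (ATTGG when read on the other), binds the factor NF-Y, a known partner of the Srebf factors at sterol genes. It was present in the windows of 12 of 15 sterol enzymes, 80.0%, beside 37.5% of all 33469 windows and 37.3% of 10366 windows of genes measured with bufalin. At least 2 matches were present in 10 of the 15 enzymes, 66.7%, beside 11.2% of all windows and 13.4% of those of genes measured with bufalin. Acat2, Cyp51 and Dhcr7 held none, and with bufalin they stood at -0.10, -0.12 and -0.23 in the authors' deposited table. Of the 5 regulators 4 held a match, also 80.0%, and 1 held at least 2. Of the 4 fatty acid genes with a window, Acly and Fads1 held 1 match each and Scd and Fads2 none, and Abca1 held none. A classical sterol regulatory element, TCACNCCAC on either strand, was in 1.12% of all windows and in 0 of the 26 members. At so low a share 26 members are too few to tell a lack of matches from the rate of all windows. Only this exact sequence was searched, so other forms of the element would be missed. The element shares no full match with the CCAAT box. A match is a description of these windows and not a measured binding site.

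The stretches below were chosen for their matches, to show how the boxes lie in 7 enzymes and, for contrast, the last bases before the start of Abca1. They read 5′ to 3′ along the gene, on GRCr8, and capitals mark the CCAAT box or its reverse ATTGG.
Hmgcs1 (chr2:53382101-53382190, + strand): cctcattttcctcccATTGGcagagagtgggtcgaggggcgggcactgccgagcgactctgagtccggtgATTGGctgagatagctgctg
Mvk (chr12:47819504-47819691, - strand): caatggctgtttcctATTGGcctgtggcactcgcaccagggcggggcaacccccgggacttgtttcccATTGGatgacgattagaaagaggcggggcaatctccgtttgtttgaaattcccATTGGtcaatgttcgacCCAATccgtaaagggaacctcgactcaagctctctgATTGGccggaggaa
Idi1 (chr17:66547540-66547605, - strand): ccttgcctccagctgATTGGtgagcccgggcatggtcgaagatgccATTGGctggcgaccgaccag
Fdps (chr2:176804882-176804961, - strand): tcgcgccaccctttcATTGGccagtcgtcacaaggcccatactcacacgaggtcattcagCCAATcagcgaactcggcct
Msmo1 (chr16:29746925-29747064, + strand): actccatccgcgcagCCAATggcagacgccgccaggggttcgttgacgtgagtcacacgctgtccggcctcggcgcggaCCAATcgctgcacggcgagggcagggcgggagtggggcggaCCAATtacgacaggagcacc
Nsdhl (chrX:155817137-155817314, + strand): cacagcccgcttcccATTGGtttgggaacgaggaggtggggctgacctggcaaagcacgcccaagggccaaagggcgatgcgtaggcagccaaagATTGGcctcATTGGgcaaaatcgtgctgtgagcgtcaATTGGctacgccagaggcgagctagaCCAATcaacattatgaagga
Hsd17b7 (chr13:84722760-84722945, - strand): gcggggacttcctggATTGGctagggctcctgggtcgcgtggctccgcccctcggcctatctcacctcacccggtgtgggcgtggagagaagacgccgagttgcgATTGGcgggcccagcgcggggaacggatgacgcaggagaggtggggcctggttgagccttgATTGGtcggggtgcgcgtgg
Abca1 (chr5:72596474-72596573, - strand): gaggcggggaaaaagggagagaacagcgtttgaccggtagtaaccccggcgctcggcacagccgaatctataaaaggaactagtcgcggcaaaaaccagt
In Mvk the starts of the 4 reverse boxes follow each other at steps of 53 bases. Nsdhl and Mvk hold 5 boxes each before the start site, Msmo1 and Hsd17b7 hold 3, and Hmgcs1, Idi1 and Fdps hold 2.

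**Figure D2:**
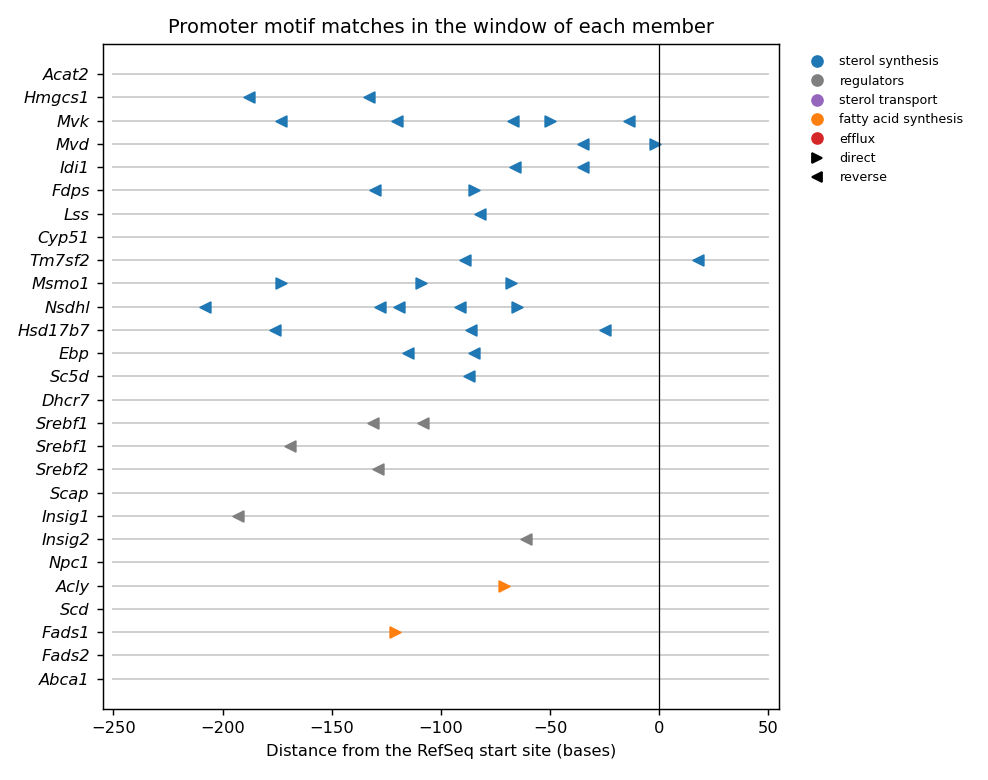
Positions of CCAAT box matches, in bases from the RefSeq start site, in the windows of the 26 members found in the promoter table (Srebf1 has 2 windows). Right-pointing marks are direct and left-pointing marks reverse matches. Of 15 sterol enzymes 10 hold at least 2 marks and Acat2, Cyp51 and Dhcr7 hold none, and Abca1 holds none.

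Of the 5 regulators, 4 were above 0 with bufalin and 2 with periplocin. Srebf1, the lipogenic factor, had fitted means of 942 normalized counts in control and 1133 with bufalin, 1.20-fold (interval 1.01 to 1.43), and the authors' deposited table gave a change of 0.27 ± 0.13 (unadjusted p = 0.0333). With periplocin Srebf1 stood at 0.14 ± 0.11 in the authors' deposited table. In the authors' deposited table, Srebf2, the sterol factor, was at 0.03 ± 0.06 (bufalin) and 0.02 ± 0.06 (periplocin), and the escort Scap at -0.03 ± 0.09 and -0.08 ± 0.08. Insig1, a retention factor whose gene is itself a Srebf target, had fitted means of 28734 in control and 34059.7 with bufalin, and 27839.7 and 27373 in the periplocin table. In the authors' deposited table Insig1 stood at 0.25 ± 0.28 (bufalin) and -0.02 ± 0.15 (periplocin). That error is large for such counts: 99.1% of the 336 genes within 2-fold of its mean had a lower standard error with bufalin, and 97.9% of 374 with periplocin. Insig2, its paralog, was at 0.09 ± 0.16 and -0.09 ± 0.15 in the authors' deposited table. Of the transport genes, Stard4, a cytosolic sterol carrier, was at 0.00 ± 0.09 and -0.04 ± 0.10, and Npc1, which exports cholesterol from lysosomes, at 0.02 ± 0.07 and -0.01 ± 0.06 in that order of compounds in the authors' deposited table.

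Fatty acid synthesis genes had medians of -0.10 with bufalin, 6 of 7 below 0, and -0.07 with periplocin, 7 of 7 below 0. Acly, which makes the cytosolic acetyl-CoA that feeds both pathways, had fitted means of 20870.4 in control and 18427 with bufalin, at -0.18 ± 0.08 (unadjusted p = 0.0262) in the authors' deposited table, and at -0.01 ± 0.06 with periplocin. The carboxylase Acaca was at -0.07 ± 0.09 and -0.09 ± 0.07, and the synthase Fasn at 0.03 ± 0.09 and -0.02 ± 0.06, in the authors' deposited table. With periplocin the lowest values were those of Elovl6, a fatty acid elongase, at -0.21 ± 0.10 (p = 0.0324), and Scd, the desaturase that makes monounsaturated fatty acids, at -0.13 ± 0.06 (p = 0.0293), in the authors' deposited table. The same genes stood at -0.10 ± 0.14 and -0.03 ± 0.06 with bufalin in the authors' deposited table. The desaturases of polyunsaturated fatty acids, Fads1 and Fads2, were at -0.10 ± 0.05 and -0.12 ± 0.09 (bufalin) and at -0.07 ± 0.05 and -0.03 ± 0.07 (periplocin) in the authors' deposited table.

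Abca1 was the member with the lowest unadjusted p in both comparisons, and it was above 0 in both. Its fitted mean was 3741 normalized counts in control and 4503 with bufalin, 1.20-fold (interval 1.08 to 1.35), and the authors' deposited table gave a change of 0.27 ± 0.08 (unadjusted p = 0.00122, adjusted p = 0.142 by the DESeq2 test). With periplocin the fitted means were 3624 and 4144, 1.14-fold (interval 1.06 to 1.23), and the authors' deposited table gave a change of 0.19 ± 0.06 (p = 0.000503, adjusted p = 0.0736). Its values were at or above those of 98.1% and 95.5% of genes whose mean reached 200, with bufalin and periplocin. The median of the sterol enzymes lay at the point that 10.4% and 36.5% of these genes reach or fall under, and that of the fatty acid genes at 17.2% and 21.3%.

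**Figure D3:**
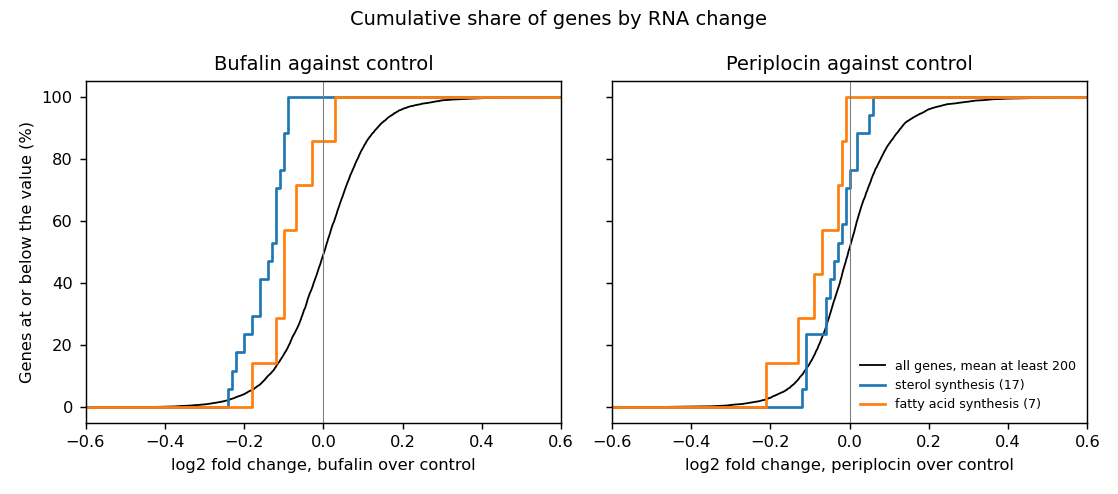
Cumulative share of genes, in percent, by log2 fold change of RNA over control, for all genes whose mean reached 200 (black), the 17 sterol enzymes that reach it (blue) and the 7 fatty acid genes (orange). With bufalin the whole blue line rises below 0. With periplocin 13 of these 17 sterol enzymes and all 7 fatty acid genes lie below 0, beside 49.5% of all genes with a p-value.

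The compounds were compared with each other by the difference of their log2 changes, in which the shared controls cancel, over 10608 genes whose mean reached 10 in both tables. No member passed an adjusted p of 0.05 by this approximate Wald test with Benjamini-Hochberg adjustment, beside 0.396% of all genes, and 5 of 33 had an unadjusted p under 0.05. All 5 were lower with bufalin, a direction that 3.23% of all genes had at that p, while 3.10% were higher: Hsd17b7, Idi1, Nsdhl, Msmo1 and Acly. Hsd17b7 had fitted means of 873 with bufalin and 1035 with periplocin, and a bufalin minus periplocin difference of -0.29 (interval -0.49 to -0.09, adjusted p = 0.338 by the approximate Wald test). The difference was -0.19 (interval -0.35 to -0.02) for Idi1, -0.24 (interval -0.45 to -0.02) for Nsdhl, -0.16 (interval -0.30 to -0.01) for Msmo1 and -0.16 (interval -0.31 to -0.02) for Acly.

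By role, 17 of the 18 sterol enzymes had a difference below 0, with a median of -0.11, and Pmvk was above it at 0.01 (interval -0.16 to 0.18). Over all genes 49.3% were below 0. The 7 fatty acid genes had a median difference of 0.02 with 3 below 0, and all 5 regulators were above 0 with a median of 0.13. Hmgcs1, among the lowest p-values against control with periplocin, differed by -0.01 (interval -0.11 to 0.08), Fdft1 by -0.03 (interval -0.15 to 0.08) and Abca1 by 0.07 (interval -0.06 to 0.21), and these intervals bound the differences without showing that the compounds act alike. Since dose and time are not given, these are differences between the libraries as made and not between matched doses.

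**Figure D4:**
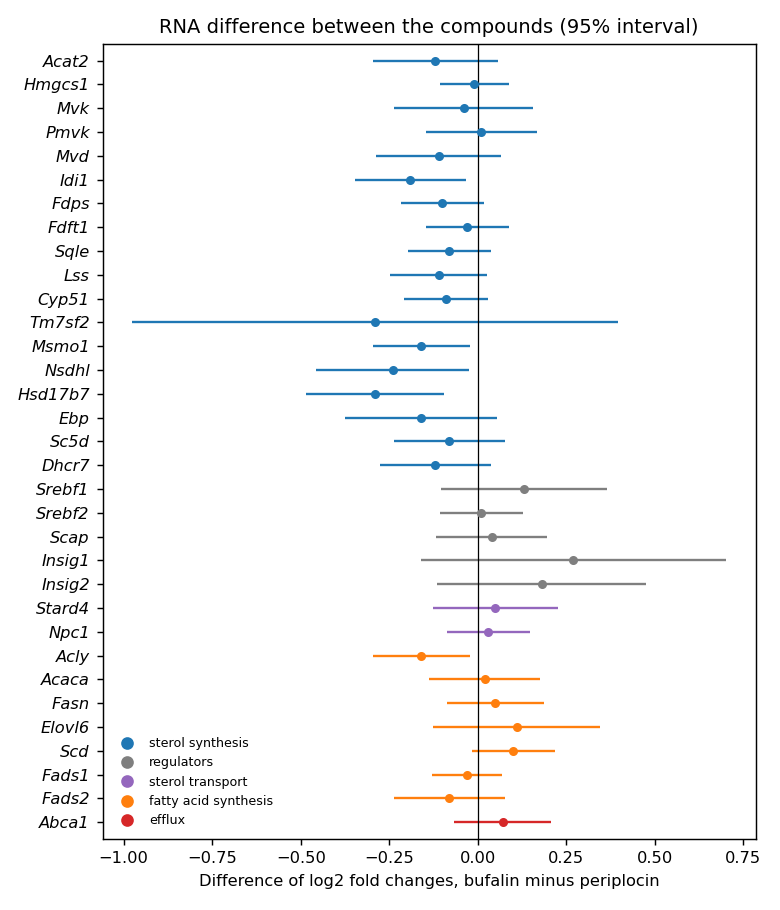
Difference of the log2 fold changes, bufalin minus periplocin, for the 33 members with counts; points are estimates and bars 95% intervals from the approximate standard error. Of the 18 sterol enzymes (blue) 17 lie below 0, and of the 7 fatty acid genes (orange) 3.

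Other genes of the pathway came from a list of 39 receptors, elongases, acyl-CoA ligases, proteases and transporters, of which 38 had an RNA p-value with bufalin and 37 with periplocin. By the DESeq2 test 0 of them passed an adjusted p of 0.05 in either comparison. With bufalin 23 were below and 15 above 0, with a median of -0.01, and with periplocin 21 below and 16 above, with a median of -0.03. At an unadjusted p under 0.05, 1 of 38 was lower and 1 higher with bufalin, where 1.96% of all genes were lower and 3.04% higher. They were Me1, the malic enzyme that supplies NADPH, at -0.19 ± 0.10, and the receptor Lrp1, at 0.10 ± 0.04, in the authors' deposited table (both named after their values were seen). With periplocin 2 of 37 were lower and 1 higher, where 2.15% of all genes were lower and 4.09% higher. These were Mbtps1, the protease of the first Srebf cleavage, at -0.13 ± 0.04 (p = 0.00344), Cyb5r3, a cytochrome b5 reductase, at -0.11 ± 0.06 (named after its value was seen), and the lipid carrier Apoe, at 0.55 ± 0.17 (p = 0.00136), in the authors' deposited table. Between the compounds, 4 of 35 were higher with bufalin and 0 lower at that unadjusted p by the approximate Wald test. Over all genes 3.10% were higher and 3.23% lower. None of the 35 passed an adjusted p of 0.05 there.

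The m6A lists held 18 peaks on 14 members with bufalin and 18 peaks on 14 members with periplocin, on build rn6. Fold enrichment, read as IP over input, is the peak's own value as the authors gave it. Each value belongs to the comparison of a compound with control, so it is not read as a level in treated cells alone. Sterol enzymes carried 14 and 13 of these peaks, on 11 and 10 of the 18 genes. Of the 7 fatty acid genes only Fads1 had a listed peak, in both lists, and Abca1 had none. Of all genes whose mean reached 200, 58.2% had a peak in the bufalin list and 55.7% in the periplocin list, and of those whose mean reached 1000, 67.6% and 65.6%. Where the peaks lie in the transcripts was not analysed here.

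The most enriched peak on a member was on Acat2, at chr1:47977310-47980531 on the + strand, joined over 2 blocks of 200 bases in all. It had a fold enrichment of 4.44 in the bufalin list, above 99.6% of the peaks there. The overlapping peak in the periplocin list, chr1:47980432-47980531, was shorter, with 1 block of 100 bases, and had 3.04. Insig1 carried a pair of neighbouring peaks. The stronger, chr4:349281-349725 on the + strand, had a fold enrichment of 2.52 over 445 bases in the bufalin list. Its overlapping peak in the periplocin list, chr4:349429-349725, had 2.09 over 297 bases. Among further sterol enzymes, Cyp51 had 2.30 at chr4:27190399-27192631 in the bufalin list and 2.09 at chr4:27190449-27192631 in the periplocin list. In that order of lists, the peak of Msmo1 at chr16:26874951-26875342 had 2.25 and 2.13. The strongest peak of Hmgcs1, at chr2:52436513-52436661, had 1.92 and 1.95. The peak of Fads1 at chr1:226247143-226247340 had 2.05 and its overlapping one 2.04. In each list 16 of the 18 peaks overlapped a peak of the other by at least 1 base. The median enrichment of the members' peaks was 1.88 in the bufalin list and 1.81 in the periplocin list, beside 1.82 and 1.81 over all listed peaks.

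No peak on a member passed an FDR of 0.05 for a change of enrichment in either list, where 0.0304% of 9866 and 0.0436% of 9170 peaks passed, and the deposited FDR was 1 for every one of them. The direction of this change is not stated in the sources used here and was read as treated over control. The changes ran from -0.21 to 0.28 (log2) with bufalin, 7 below and 11 above 0, and from -0.36 to 0.41 with periplocin, 15 below and 3 above. Over all peaks 54.8% and 52.3% were below 0. The stronger Insig1 peak had the only unadjusted p under 0.05, with a change of -0.09 (p = 0.0457) with bufalin in the authors' deposited table, where 3.04% of all peaks passed that p, as 3.37% did with periplocin. The second lowest was that of Ebp, at chrX:15055303-15055590, with 0.28 (p = 0.0891) in the authors' deposited table.

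**Figure D5:**
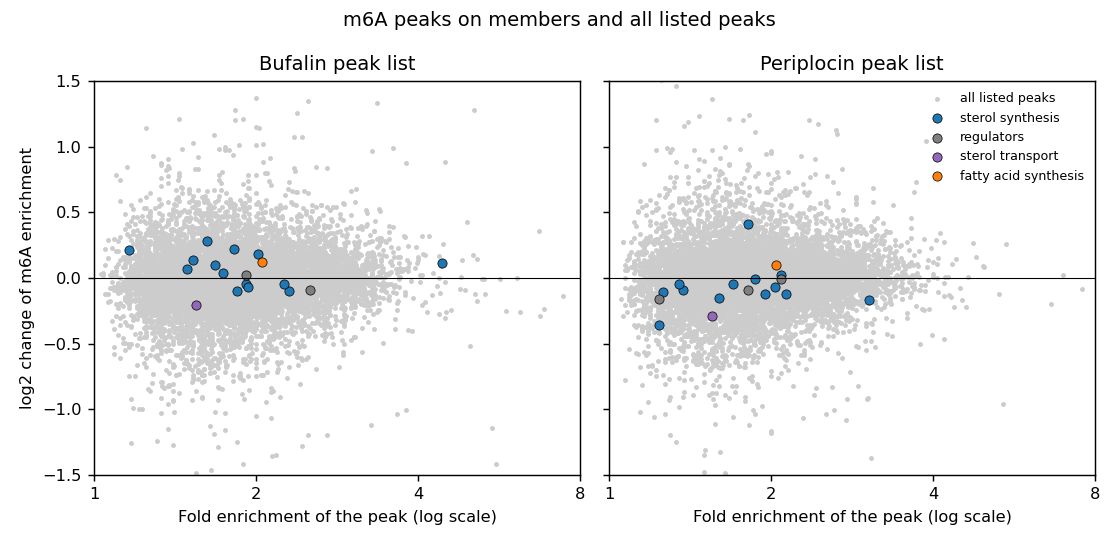
Log2 change of m6A enrichment against fold enrichment (log axis) for all listed peaks (grey) and the 18 peaks on members (coloured by role) in each list; 29 and 36 grey peaks lie outside the plotted range. The members' peaks sit inside the grey cloud, with the Acat2 peak at a fold enrichment of 4.44 farthest to the right in the bufalin list.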

How the data were processed

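MeRIP-seq of rat H9c2 cells gave 18 samples, and their titles set the groups. The authors worked on build rn6 with DESeq, HISAT2 and StringTie, per the submitters' processing notes; their versions and the peak caller are not named in any source used here. The signal in the RNA tables is the authors' mean normalized count, as DESeq2 names this column. The log2 fold changes, standard errors, p-values and the Wald score are the authors' deposited values per the file headers; whether input or IP libraries were used is not stated. Fold enrichment is a deposited ratio, and log10 p and FDR values come from the deposited lists. The log10 values of the change were used as p-values and FDRs in both lists. In the periplocin list some of them lie far below the usual range. Depth per library was not analysed here, so the deposited standard errors set the precision.

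Direction was checked: control means from both tables coincided within 1% in 10608 of 10608 genes, once an offset of 0.05 (log2) was taken off, with each change taken as treated over control, and in 1047 to 1158 of them with either or both signs turned. The Wald score has the opposite sign to the fold change in all 12913 genes of the periplocin table, so signs come from the fold changes.

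The difference between compounds used an approximate Wald test: each standard error was split into counting noise and a remaining spread between libraries, assumed the same in both groups of a table; the error of the difference sums both parts over the treated groups. It was tried on simulated counts drawn under these same assumptions, so the simulation cannot show whether they hold for these data. The members and gene lists were chosen with earlier results of these data known. All members the files hold are named, and of the other pathway genes those with an adjusted p under 0.05 or an unadjusted p under 0.01. Medians and counts of members carry no test. Promoter windows came from RefSeq (GRCr8), and their coordinates were not joined with rn6. Peak sequences and positions in transcripts were left out, since no rn6 genome was used here. The scripts ran under Python 3.11.15 with scipy 1.17.1, numpy 2.4.6, matplotlib 3.10.9 and pandas 2.3.3.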

Additional observations from a re-analysis of the deposited data

How the results depend on the processing

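Of 30 alternatives over 11 results, 29 left the value as it was within its spread or its count within 1.5 times, but several of the 29 could not move. The exception was the count of members called with periplocin, which went from 0 to 1 at an adjusted p under 0.1, where Abca1 passed at 0.0736; the threshold itself sets this. With p adjusted over all genes that have one, the lowest adjusted p of a member was 0.302 with bufalin and 0.0763 with periplocin, by the DESeq2 p-values with Benjamini-Hochberg adjustment, and the count stayed at 0. The upper limit of the standard error, which ignores the shared controls, gave 0 members in the compound comparison. It widens the errors, so a count of 0 could not rise there. The median of the sterol enzymes with bufalin was -0.14, -0.14 after centring, -0.13 without Tm7sf2 (mean under 200) and -0.12 with regulators and transport genes added. Settings that could not move were those of the peaks, the upper limit of the standard error and some of those on the mean. Centring could hardly move a median, since it shifted values by 0.002 (bufalin) and -0.003 (periplocin). No peak on a member had an FDR of the change under 0.1, so each peak setting had to give 0. A minimum mean of 200 removed no fatty acid gene and left Abca1 in. No paired analysis was possible because the files hold 1 value per comparison and none per library, and for the same reason no replicate could be left out. The errors of 0.04 to 0.37 (SE, log2) limit what single members can show.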
